A study of Mus musculus with 9 samples.

Results

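A set of 9 genes was followed in colon RNA, namely Ly6a, Clu, Anxa1, Anxa3 and Msln, which mark fetal-like or regenerating gut epithelium, and Ctgf, Cyr61, Ankrd1 and Ajuba, which are targets or partners of the transcriptional regulator YAP. They were chosen by gene symbol, with earlier results of these data known. All 9 were found among the 21498 symbols in the deposited tables, and none had a repeated row. In the colon of AOM/DSS + IgG Ab mice all 9 were above the Control mice on average, as were 57.6% of all genes tested. Cyr61, Ankrd1, Ajuba and Msln passed the test, where 8.18% of all genes rose. In AOM/DSS + anti-S100a9 Ab mice the same 4 genes were lower than in AOM/DSS + IgG Ab mice, where 14.4% of all genes fell. That count ran from 0 to 4 with a sample left out. No member passed the test against Control, where only 0.0131% of all genes passed.

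The colorectal transcriptome was measured in male ICR mice, an outbred stock, with 3 mice in each of 3 groups. All mice entered at 5 weeks of age, and the samples were taken at the end of week 18. Control mice received neither chemicals nor antibody, and their samples are labelled normal colorectal mucosa. The other mice had 1 intraperitoneal injection of 10 mg/kg azoxymethane (AOM), a colon carcinogen, and then 3 cycles of dextran sulfate sodium (DSS), which injures the colon epithelium, in drinking water (2% for 7 days in the first cycle and 1.5% for 5 days in the later cycles). During the cycles they were given 1.5 mg/kg of antibody into a vein every 2 days, either a negative control IgG Ab or a rabbit polyclonal anti-S100a9 Ab, raised against a calcium-binding protein of myeloid cells. The labels call both AOM/DSS groups colorectal adenocarcinoma, whereas the paper speaks of colon mucosa for the anti-S100a9 Ab mice, so the share of tumour in these samples is uncertain. There is no group of AOM/DSS mice without an antibody.

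After injury, colon epithelium can return for a time to a programme that resembles fetal gut, in which the surface protein Ly6a (Sca-1), the annexins and clusterin are raised. YAP and its relative TAZ (Wwtr1) drive much of this programme: when the Hippo kinases are inactive they enter the nucleus, bind TEAD factors on DNA and switch on genes such as Ctgf, Cyr61 and Ankrd1. Several of these genes are also made by fibroblasts, muscle, squamous epithelium or mesothelium, and Ly6a responds to interferon.

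Values were taken as FPKM, fragments scaled by transcript length and by sequencing depth, a unit meant to let levels be compared between genes. The number of fragments behind a value is unknown, so no counting error or detection floor could be given, and the precision comes from the 3 mice in each group. FPKM totals ran from 308377 to 408811 per sample. Epithelial markers were high in every sample, with the sum of 8 markers (Epcam, Cdh1, Vil1 and keratins among them) at 3700 to 5419 FPKM. Some genes that nearly all cells express highly were listed near 0 (Gapdh at no more than 0.755 FPKM). Comparisons of level between genes, and ranks by level, are therefore uncertain. No member was listed at 0 in any sample. Differences are given as log2 fold changes on the log2(FPKM + 0.1) scale, which understates the change of low genes, and a gene is said to have risen or fallen where its adjusted p from limma was under 0.05. In bulk tissue, fewer cells of a type and less RNA per cell cannot be told apart.

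In the mouse genome (GRCm38, GENCODE M21 annotation) the members lie on 7 chromosomes. Ly6a is at chr15:74994877-74998031 on the minus strand, Clu at chr14:65968483-65981547 on the plus strand, Anxa1 at chr19:20373428-20390944 on the minus strand and Anxa3 at chr5:96793339-96845966 on the plus strand. Msln is at chr17:25748613-25754378 on the minus strand, Ctgf (now Ccn2) at chr10:24595442-24598683 on the plus strand and Cyr61 (now Ccn1) at chr3:145646976-145649981 on the minus strand. Ankrd1 is at chr19:36111961-36120099 and Ajuba at chr14:54567472-54577558, both on the minus strand. Of the 50-base stretches in the Ly6a transcripts, 19.0% also occur in neighbouring family genes (Ly6c1, Ly6c2, Ly6i and I830127L07Rik), so reads from these stretches may not be separable. For the other members this share was 2.88% or less. The share is not an error of the level, and its effect on the level of Ly6a is unknown. An antisense transcript, Gm15270, overlaps the exons of Ctgf, and Gm42603 overlaps those of Anxa3. Whether reads were counted by strand is not given in the sources used here, so reads of these overlapping genes may not be separable.

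The promoters are shown because YAP acts through TEAD factors, whose binding core is GGAATG. RefSeq promoters on GRCm38.p6 were at hand for 4 members, and those of Ly6a, Clu, Anxa3, Ctgf and Msln were not. Each window is the 250 bases before the RefSeq start, read 5′ to 3′ along the gene's own strand (the minus strand in all 4). The windows are chr19:20390672-20390921 for Anxa1, chr3:145649986-145650235 for Cyr61, chr19:36119845-36120094 for Ankrd1 and chr14:54577662-54577911 for Ajuba. GENCODE M21 places the starts of some Anxa1 and Ankrd1 transcripts further upstream than RefSeq does, so for these genes all 250 bases lie inside the GENCODE gene and its exons, and only by the RefSeq start are they upstream. The windows of Cyr61 and Ajuba lie outside the gene in both annotations and are printed, with GGAATG, or its reverse complement CATTCC, in capitals.
Cyr61: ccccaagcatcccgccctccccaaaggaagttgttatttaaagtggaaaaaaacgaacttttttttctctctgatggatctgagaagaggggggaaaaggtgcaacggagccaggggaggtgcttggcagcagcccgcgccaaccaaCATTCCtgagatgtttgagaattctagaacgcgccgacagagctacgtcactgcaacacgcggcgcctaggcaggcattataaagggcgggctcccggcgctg
Ajuba: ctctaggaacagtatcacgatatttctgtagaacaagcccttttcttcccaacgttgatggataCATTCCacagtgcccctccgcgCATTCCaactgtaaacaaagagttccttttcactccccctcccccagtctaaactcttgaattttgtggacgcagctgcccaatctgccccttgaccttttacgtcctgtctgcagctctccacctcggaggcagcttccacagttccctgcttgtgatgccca

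All 4 windows held the TEAD core on either strand, against 12.6% of 32851 mouse promoters of the same length. Cyr61, Ankrd1 and Ajuba were listed as targets or partners of YAP, which acts through TEAD factors. The core could thus be expected from the choice of genes, and the contrast is not independent evidence. Anxa1 had 1 copy, which began 236 bases before the RefSeq start, and Cyr61 had 1 at 103 bases. Ankrd1 had 2, at 210 and 123 bases, and Ajuba had 2, at 186 and 164 bases, whereas 1.02% of all promoters held 2 or more. The AP-1 letters TGANTCA, searched on both strands, were in none of the 4 windows and in 6.75% of all promoters. Such matches describe letters and do not show binding, and the promoters at hand were too few to set against how the genes behaved. Of the 4 genes with a TEAD core in the window, Cyr61, Ankrd1 and Ajuba rose in the AOM/DSS + IgG Ab mice, and Anxa1 did not pass the test. No window at hand lacked the core, so its presence could not be set against the change.

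The members covered a wide range of levels. In Control colon, Ly6a had the highest mean, 177 ± 41.2 FPKM (SD, n = 3), and ranked 278 among the 15278 genes tested. Clu (139 ± 95.1 FPKM, SD, n = 3) and Anxa1 (112 ± 3.93 FPKM, SD, n = 3) followed. The values of Clu overlapped those of both others, whereas Ly6a was above Anxa1 in every Control mouse. Anxa3 (17.4 ± 3.23 FPKM) and Ctgf (11.1 ± 2.26 FPKM, SD, n = 3 each) came next, then Cyr61 at 7.59 ± 3.21 FPKM, which overlapped Ctgf. Msln (1.80 ± 1.23 FPKM) and Ajuba (1.40 ± 0.109 FPKM, SD, n = 3 each) were low and overlapped each other. Ankrd1 was listed lowest of the members, at 0.0986 ± 0.0558 FPKM (SD, n = 3), rank 14766. All 9 passed the filter on low values (at least 0.1 FPKM in at least 3 samples). Ankrd1 reached that level in 6 samples, 3 of them outside the AOM/DSS + IgG Ab group, and each other member in all 9.

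**Figure D1:**
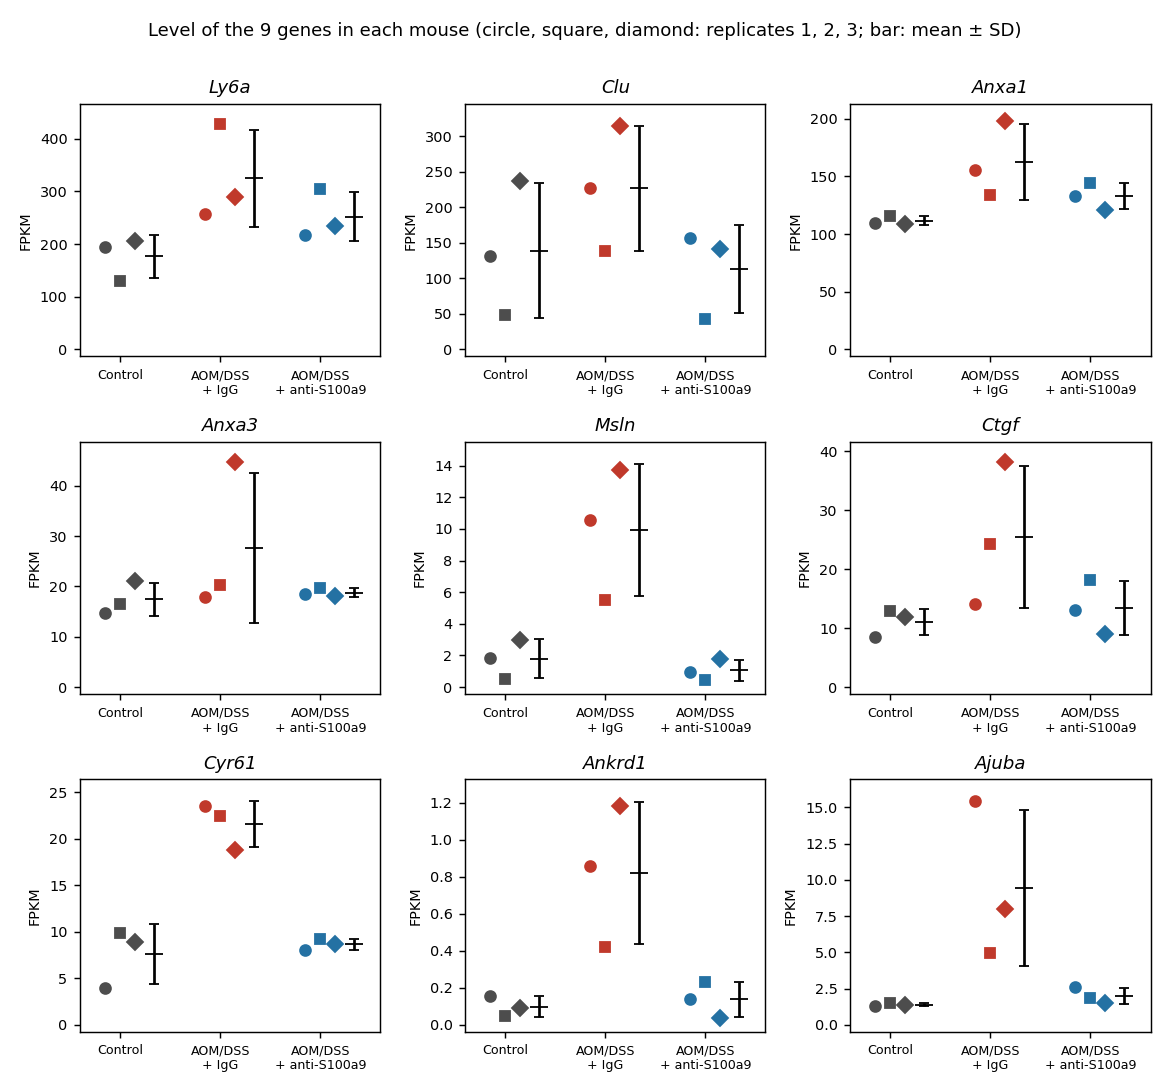
FPKM (linear axes, a different range for each gene) of each of the 9 genes in every mouse, by group, with circle, square and diamond for replicates 1, 2 and 3 and the black bar for the mean ± SD of 3 mice. Cyr61, Ankrd1, Ajuba and Msln lie higher in all 3 AOM/DSS + IgG Ab mice than in all 6 other mice, whereas Clu and Anxa3 overlap between groups.

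Among the surface and secreted markers of regenerating epithelium, Ly6a, a GPI-anchored stem cell antigen, was measured at 194, 129.8 and 207 FPKM in Control mice 1 to 3, at 257, 429 and 289 in AOM/DSS + IgG Ab mice and at 218, 305 and 234 in AOM/DSS + anti-S100a9 Ab mice. Every AOM/DSS + IgG Ab mouse was above every Control mouse, and so was every anti-S100a9 Ab mouse. The log2 fold change of AOM/DSS + IgG Ab against Control was 0.87 (95% interval 0.28 to 1.46), with an adjusted p of 0.065 from limma, so Ly6a did not pass. With quantile normalization the adjusted p was 0.024. Anti-S100a9 Ab against IgG Ab gave -0.34 (interval -0.94 to 0.25, adjusted p = 0.35 from limma), and the 2 groups overlapped. The 11 interferon response genes summed to 254.5 FPKM in AOM/DSS + IgG Ab mouse 2, which had the highest Ly6a, and to 87.1 and 114 FPKM in the other mice of that group, against 125 to 201 FPKM in Control mice. Of the 10 interferon genes tested, none passed in any comparison, and their part in the level of Ly6a was not tested.

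Clu encodes clusterin, a secreted chaperone that marks revival stem cells after injury. Its values were 131, 47.9 and 238 FPKM in Control mice, 228, 139 and 315 in AOM/DSS + IgG Ab mice and 156, 42.4 and 142 in anti-S100a9 Ab mice. Replicate 2 was the lowest in each group, and all groups overlapped. The log2 fold change was 0.91 (interval -0.58 to 2.41, adjusted p = 0.39) against Control and -1.13 (interval -2.63 to 0.36, adjusted p = 0.23) for anti-S100a9 Ab against IgG Ab, both from limma. Both intervals held 0.

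Anxa1 and Anxa3 encode annexins, calcium-dependent membrane-binding proteins, of which Anxa1 takes part in the resolution of inflammation. Anxa1 was at 109.6, 116 and 109 FPKM in Control mice, at 155, 134 and 198 in AOM/DSS + IgG Ab mice and at 133, 144 and 121 in anti-S100a9 Ab mice. Both AOM/DSS groups lay above all Control mice and overlapped each other. The log2 fold change of AOM/DSS + IgG Ab against Control was 0.52 (interval 0.15 to 0.90, adjusted p = 0.075 from limma), and that of anti-S100a9 Ab against IgG Ab was -0.27 (interval -0.65 to 0.10, adjusted p = 0.24 from limma).

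Anxa3 was at 14.8, 16.4 and 21.0 FPKM in Control mice, at 18.0, 20.3 and 44.8 in AOM/DSS + IgG Ab mice and at 18.5, 19.7 and 18.2 in anti-S100a9 Ab mice. Only AOM/DSS + IgG Ab mouse 3 stood above the rest. The log2 fold change against Control was 0.56 (interval -0.15 to 1.26, adjusted p = 0.27 from limma), and without that mouse it was 0.15.

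Msln encodes mesothelin, a surface glycoprotein of mesothelium that also appears in fetal and injured gut and in several carcinomas. It was measured at 1.86, 0.543 and 3.00 FPKM in Control mice, at 10.6, 5.49 and 13.7 in AOM/DSS + IgG Ab mice and at 0.982, 0.469 and 1.79 in anti-S100a9 Ab mice. All 3 AOM/DSS + IgG Ab mice were above the 6 others, and replicate 2 was again the lowest in each group. Msln rose by a log2 fold change of 2.57 (SE 0.64, adjusted p = 0.037 from limma) in AOM/DSS + IgG Ab against Control. In anti-S100a9 Ab against IgG Ab it fell by 3.16 (SE 0.64, adjusted p = 0.016 from limma), the largest fall among the 9 members. When each sample was left out in turn, the rise passed in 4 of 9 fits and the fall in 7.

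Markers of mesothelium differed among themselves. The 7 markers in the tables summed to 27.6 to 36.8 FPKM in Control mice, to 6.34 to 31.9 in AOM/DSS + IgG Ab mice and to 22.5 to 28.1 in anti-S100a9 Ab mice, most of it Cldn15. Among the 5 tested, none passed in AOM/DSS + IgG Ab against Control, and Gpm6a alone passed in anti-S100a9 Ab against IgG Ab, where it rose by 1.49 (adjusted p = 0.017 from limma). Wt1, a defining marker, was at 0.0384, 0.107 and 0.0297 FPKM in Control mice, at 0.0147, 2.71 and 0.158 in AOM/DSS + IgG Ab mice and at 0.0684, 0.0232 and 0.212 in anti-S100a9 Ab mice, and it did not pass. Muc16, too low to be tested, was at 0.0021 to 0.0060 FPKM in Control mice, at 0.035 to 0.051 in AOM/DSS + IgG Ab mice and at 0.0048 to 0.033 in anti-S100a9 Ab mice. Like Msln, Muc16 was higher in every AOM/DSS + IgG Ab mouse than in the 6 others, whereas Wt1 overlapped between groups, and the part of mesothelium in the level of Msln was not tested.

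Squamous keratin genes moved with the groups as Msln did. Of 7 squamous markers tested, 5 rose in AOM/DSS + IgG Ab against Control and 6 fell in anti-S100a9 Ab against IgG Ab. Over all genes 8.18% rose and 14.4% fell in these comparisons. The 10 markers summed to 2.29 to 3.25 FPKM in Control mice, to 10.6 to 52.6 in AOM/DSS + IgG Ab mice and to 1.75 to 4.39 in anti-S100a9 Ab mice. The 5 went to 2 without Control replicate 2, and the 6 to 1 without anti-S100a9 Ab replicate 2, to 2 without its replicate 3 or IgG Ab replicate 3 and to 3 without IgG Ab replicate 1. Krt14 was the highest of the markers, at 37.1, 4.63 and 18.6 FPKM in AOM/DSS + IgG Ab mice. The defining marker Sprr3 was listed at 0 in all 9 samples, Trp63 was under 0.1 FPKM in all, and the part of squamous cells in the levels of Msln and the annexins was not tested.

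The secreted matricellular targets of YAP came next. Ctgf, a classical YAP target that fibroblasts also make, was at 8.53, 12.9 and 11.8 FPKM in Control mice, at 14.1, 24.3 and 38.1 in AOM/DSS + IgG Ab mice and at 13.1, 18.1 and 8.96 in anti-S100a9 Ab mice. The AOM/DSS + IgG Ab mice were all above Control and overlapped the anti-S100a9 Ab mice. The log2 fold change was 1.10 against Control (interval 0.25 to 1.95, adjusted p = 0.091 from limma) and -0.87 for anti-S100a9 Ab against IgG Ab (interval -1.72 to -0.02, adjusted p = 0.12 from limma), so Ctgf passed in neither.

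Cyr61, a secreted integrin ligand of the same CCN family, was at 3.93, 9.91 and 8.94 FPKM in Control mice, at 23.5, 22.5 and 18.7 in AOM/DSS + IgG Ab mice and at 8.08, 9.25 and 8.66 in anti-S100a9 Ab mice. The AOM/DSS + IgG Ab mice stood clear of both other groups, which overlapped each other. Cyr61 rose by a log2 fold change of 1.60 (SE 0.31, adjusted p = 0.015 from limma) and fell by 1.30 under anti-S100a9 Ab (SE 0.31, adjusted p = 0.023 from limma). The means were 7.59 ± 3.21, 21.6 ± 2.52 and 8.67 ± 0.582 FPKM (SD, n = 3 each) in Control, IgG Ab and anti-S100a9 Ab mice. When each sample was left out in turn, the rise passed in all 9 fits and the fall in 5.

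Fibroblast and muscle genes varied beside them. The 8 fibroblast markers summed to 441.5 to 517 FPKM in Control mice, to 640.5 to 2131 in AOM/DSS + IgG Ab mice and to 584 to 767 in anti-S100a9 Ab mice. Of these 8, Col1a1, Col1a2, Col3a1, Pdgfra and Pdgfrb rose in AOM/DSS + IgG Ab against Control, where 8.18% of all genes rose. The 3 collagen genes fell in anti-S100a9 Ab against IgG Ab, where 14.4% of all genes fell. Of the 8 markers 6 were below 0 there, whereas Dcn and Lum were above 0, at 0.32 and 0.77, without passing. No fibroblast marker rose without Control replicate 1 or 2 or IgG Ab replicate 3 or where the fit held only the groups compared, 1 rose without Control replicate 3, and 2 rose without any 1 of the anti-S100a9 Ab mice or with median-of-ratios scaling. None fell without IgG Ab replicate 3 or any 1 of the anti-S100a9 Ab mice. Among the AOM/DSS + IgG Ab mice the summed level was lowest in mouse 1, in which Ctgf was also lowest but Cyr61 and Ajuba were highest. The 8 muscle markers summed to 793 to 1289 FPKM in Control mice, 211 to 1651 in AOM/DSS + IgG Ab mice, with the most in mouse 3, and 932.5 to 1909 in anti-S100a9 Ab mice, and Acta1 was listed at 0 in all. The 6 tested were all below 0 in AOM/DSS + IgG Ab against Control (median -1.26), and none passed. In anti-S100a9 Ab against IgG Ab all 6 were above 0 (median 1.52), opposite in sign to the members. Myh11 alone rose there, by 2.01 (adjusted p = 0.033 from limma), where 6.72% of all genes rose. That count was 0 where the fit held only the groups compared and 0 to 5 with 1 sample left out. The part of these cells in the levels of Ctgf and Cyr61 was not tested.

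The intracellular members, low in Control colon, rose from that low level. Ankrd1, a nuclear and sarcomeric ankyrin-repeat protein that is among the most responsive YAP targets, was at 0.158, 0.0466 and 0.0916 FPKM in Control mice, at 0.859, 0.419 and 1.19 in AOM/DSS + IgG Ab mice and at 0.141, 0.232 and 0.0377 in anti-S100a9 Ab mice. Every AOM/DSS + IgG Ab mouse was above the 6 others, although its level there was still at or near 1 FPKM or less. It rose by a log2 fold change of 2.16 (SE 0.45, adjusted p = 0.020 from limma) and fell by 1.95 under anti-S100a9 Ab (SE 0.45, adjusted p = 0.022 from limma). At such levels the size depends on the pseudocount, and the rise ranged from 0.71 to 2.95 over the settings other than those leaving out a sample, and Ankrd1 passed in all 8 of these that tested it. When each sample was left out in turn, the rise passed in 6 of 9 fits and the fall in 4, with adjusted p up to 0.078 and 0.067 from limma.

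Ajuba, a LIM-domain scaffold protein that binds and restrains LATS kinases, was at 1.29, 1.51 and 1.39 FPKM in Control mice, at 15.4, 4.95 and 7.96 in AOM/DSS + IgG Ab mice and at 2.59, 1.87 and 1.52 in anti-S100a9 Ab mice. The AOM/DSS + IgG Ab mice were above all others by a wide margin, and the anti-S100a9 Ab mice were also all above Control. Ajuba rose by a log2 fold change of 2.52 (SE 0.38, adjusted p = 0.0057 from limma), the lowest adjusted p of the 9 members, and fell by 2.07 under anti-S100a9 Ab (SE 0.38, adjusted p = 0.013 from limma). With each sample left out in turn, its rise passed in all 9 fits and its fall in 8. The study named Ajuba in a Hippo pathway list selected on these same samples, so that list is not independent evidence of its direction.

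**Figure D2:**
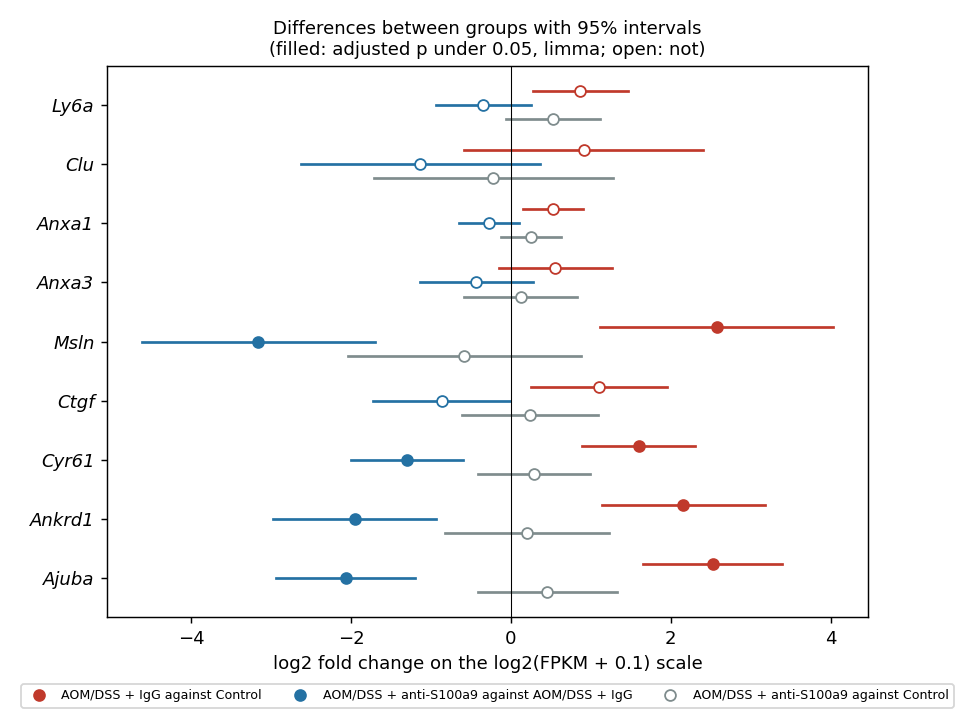
log2 fold changes of the 9 genes on the log2(FPKM + 0.1) scale in the 3 comparisons, with 95% intervals from limma, filled where the adjusted p was under 0.05. Cyr61, Ankrd1, Ajuba and Msln are filled in both comparisons that involve the AOM/DSS + IgG Ab mice (1.60 to 2.57 up, -1.30 to -3.16 down), and no point is filled for anti-S100a9 Ab against Control.

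Counted together, 4 of the 9 members rose in AOM/DSS + IgG Ab against Control and none fell, where 8.18% of the 15278 genes tested rose and 3.01% fell. Because the members were chosen with earlier results of these data known, contrasts with all genes, here and below, are not independent evidence. All 9 were above 0, as were 57.6% of all genes, and their median was 1.10 against 0.09 over all genes. In 7 of 9 members every AOM/DSS + IgG Ab mouse was higher than every Control mouse, against 20.7% of all genes. Only 2 members passed without Control replicate 2 or without AOM/DSS + IgG Ab replicate 3 (Cyr61 and Ajuba in both), and 2 passed where the fit held only these groups (Ankrd1 and Ajuba). Under the thresholds of the paper, an unadjusted p below 0.05 with over 2-fold change, 5 members counted as higher (Ctgf being the addition) against 8.43% of all genes. Another scaling moved the median of all genes, to -0.03 with quantile normalization, and changed no member's direction. Of all calls in this comparison 73.1% were rises, and 60.0% with quantile normalization.

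Between the AOM/DSS groups, 4 of 9 members fell with anti-S100a9 Ab and none rose, where 14.4% of all genes fell and 6.72% rose. All 9 log2 fold changes were below 0, with a median of -1.14 against -0.06 over all genes, and 46.4% of all genes were above 0. In 4 of 9 members every anti-S100a9 Ab mouse was lower than every IgG Ab mouse, against 28.5% of all genes. Single mice moved this count: it was 0 without anti-S100a9 Ab replicate 2, 1 without replicate 1 (Ajuba), 2 without replicate 3 (Ajuba and Msln) and 2 without IgG Ab replicate 1 (the same genes). The number of all genes that fell dropped as well, from 2193 to 428, 625 and 854 without anti-S100a9 Ab replicates 2, 1 and 3. Under the thresholds of the paper the 4 fell as well, against 8.38% of all genes. Of all calls 31.9% were rises, and 44.9% with quantile normalization. The IgG Ab mice stand in both comparisons, so a high value there enters the rise and the fall alike.

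In AOM/DSS + anti-S100a9 Ab against Control, none of the 9 members passed with limma, nor did any at an unadjusted p under 0.05, where 0.0131% of all genes passed the adjusted threshold and 16.0% the unadjusted one. Of the 9 log2 fold changes, 7 were above 0, against 53.3% of all genes, and they ran from -0.58 (Msln) to 0.53 (Ly6a), with a median of 0.24 against 0.04 over all genes. Ly6a, Anxa1 and Ajuba were higher in every anti-S100a9 Ab mouse than in every Control mouse, 3 of 9 members against 17.3% of all genes. The intervals were not narrow, from -0.07 to 1.12 for Ly6a and from -2.04 to 0.87 for Msln, so these values do not show that the levels were equal.

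**Figure D3:**
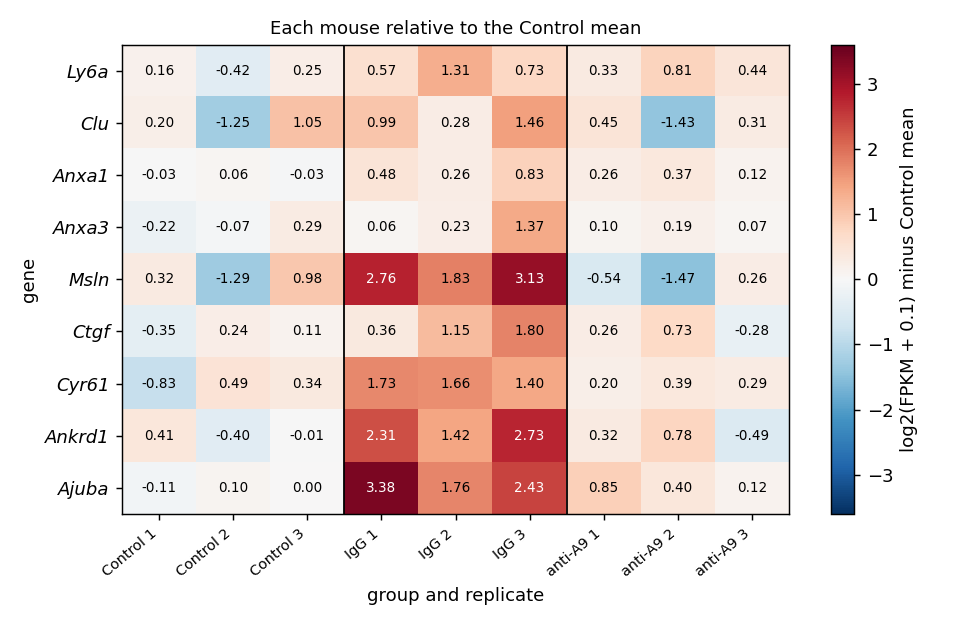
log2(FPKM + 0.1) of the 9 genes in each mouse minus the Control mean, with genes in rows, mice in columns and red for higher values. In AOM/DSS + IgG Ab mice every value is above 0, and in anti-S100a9 Ab mice they are mixed, with Clu and Msln at -1.43 and -1.47 in replicate 2.

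The mice of a group did not rank alike over the members. Of the AOM/DSS + IgG Ab mice, replicate 3 had the highest value for 6 of 9 members, replicate 1 for Cyr61 and Ajuba and replicate 2 for Ly6a. Replicate 2 was the lowest of its group for 5 members. Among the anti-S100a9 Ab mice, replicate 2 was the highest for 6 members but the lowest for Clu and Msln.

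Other genes of the fetal-like programme were counted next. The list was chosen with earlier results of these data known, so its counts are not independent evidence. Of 16 such genes, 12 rose in AOM/DSS + IgG Ab against Control and none fell, with a median log2 fold change of 1.69. Over all genes 8.18% rose and 3.01% fell. In anti-S100a9 Ab against IgG Ab 12 fell and none rose, with a median of -1.40, where 14.4% of all genes fell and 6.72% rose. Spp1, the secreted phosphoprotein osteopontin, rose by 6.12 on the log2 scale (adjusted p = 0.00031 from limma) and fell by 5.01.

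Sprr1a, a cornified envelope protein induced in injured epithelium, rose by 3.14 and fell by 1.80 (adjusted p = 0.0053 and 0.030 from limma). Tnfrsf12a, the receptor of the cytokine TWEAK, rose by 2.73 and fell by 2.37 (adjusted p = 0.0013 and 0.0037 from limma). Emp1, an epithelial membrane protein, went the other way from the list in anti-S100a9 Ab against IgG Ab, at 0.87, without passing (adjusted p = 0.15 from limma). Of the list, the count of genes that fell was 5 when any 1 of the 3 anti-S100a9 Ab mice was left out. Spp1 and Tnfrsf12a are in pathway lists that the study selected on these samples, which are not independent evidence of their direction. None of the 16 passed in anti-S100a9 Ab against Control, and 5 had an unadjusted p under 0.05, as did 16.0% of all genes.

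Other direct YAP targets did not move as the fetal-like genes did. In AOM/DSS + IgG Ab against Control the median of 19 genes was 0.14, near that of all genes (0.09). Of the 19, 3 rose and none fell, where 8.18% of all genes rose and 3.01% fell. The 3 were Rbms3, an RNA-binding protein (1.93, adjusted p = 0.024), Myof, a membrane repair ferlin (1.38, adjusted p = 0.014), and Fjx1, a secreted relative of the fly protein Four-jointed (0.93, adjusted p = 0.048), all from limma. None of the 19 passed without Control replicate 2 or where the fit held only the groups compared, and 1 passed without Control replicate 1 or 3.

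In anti-S100a9 Ab against IgG Ab, 4 of the 19 YAP targets rose and 1 fell, where 6.72% of all genes rose and 14.4% fell. Crim1, a transmembrane regulator of BMP signalling, rose by 1.18 (adjusted p = 0.024 from limma), from 5.15 ± 1.30 to 11.6 ± 0.682 FPKM (SD, n = 3 each). Asap1, an ARF GTPase-activating protein, rose by 1.12 and the receptor tyrosine kinase Axl by 0.65 (adjusted p = 0.030 and 0.029 from limma). Lats2, both a Hippo kinase and a YAP target, rose by 1.02 (adjusted p = 0.023 from limma), and Ccdc80, an extracellular matrix protein, fell by 1.51 (adjusted p = 0.026 from limma). The 4 rises went to 0 when any 1 of the anti-S100a9 Ab mice was left out, to 1 without IgG Ab replicate 1 and to 2 without IgG Ab replicate 3. None of the 19 passed in anti-S100a9 Ab against Control, and 9 had an unadjusted p under 0.05, 7 of them higher. Of all genes 16.0% had such a p.

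**Figure D4:**
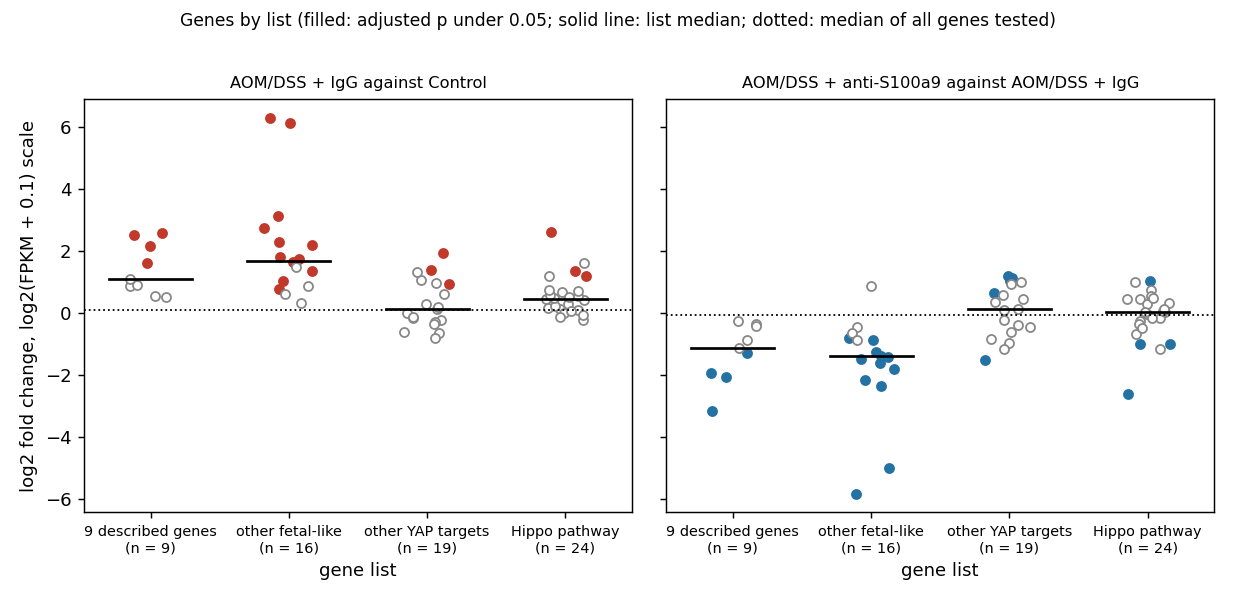
log2 fold changes on the log2(FPKM + 0.1) scale of the 9 members, 16 other fetal-like genes, 19 other YAP targets and 24 Hippo pathway genes in the 2 comparisons with the AOM/DSS + IgG Ab mice, filled where the adjusted p from limma was under 0.05, with a solid line at each list's median and a dotted line at the median of all genes. The members and fetal-like genes lie mostly above the dotted line on the left (medians 1.10 and 1.69) and below it on the right (-1.14 and -1.40), and the other YAP targets lie on both sides (0.14 and 0.12).

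The Hippo pathway itself was measured through 24 genes, all of them tested. In AOM/DSS + IgG Ab against Control, 3 rose and none fell (median 0.46), where 8.18% of all genes rose and 3.01% fell. Tead2, a DNA-binding partner of YAP, was at 3.02 ± 0.482 FPKM in Control, 21.5 ± 13.4 in IgG Ab and 3.04 ± 0.475 in anti-S100a9 Ab mice (SD, n = 3 each). It rose by 2.63 and fell by 2.61 on the log2 scale (adjusted p = 0.0049 and 0.0062 from limma). The study also named it in its Hippo list from these samples, which is not independent evidence.

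Tead1 rose by 1.20 (adjusted p = 0.037 from limma) with a log2 fold change of -0.18 under anti-S100a9 Ab, and Wwc1 (KIBRA), an upstream activator of the kinases, rose by 1.36 and fell by 1.02 (adjusted p = 0.0086 and 0.021 from limma). In AOM/DSS + IgG Ab against Control, Yap1 differed by 0.70 (adjusted p = 0.095) and Wwtr1 by 0.52 (adjusted p = 0.27), neither passing in limma. In anti-S100a9 Ab against IgG Ab they were at -0.36 and 0.49, without passing. In anti-S100a9 Ab against IgG Ab, 3 of the 24 Hippo genes fell (Tead2, Wtip and Wwc1) and 1 rose (Lats2). Neither was more frequent than over all genes, of which 14.4% fell and 6.72% rose. Wtip, a LIM protein of the Ajuba family, fell by 1.02 (adjusted p = 0.030 from limma). Without any 1 of the anti-S100a9 Ab mice, 1 Hippo gene fell and none rose. None of the 24 passed in anti-S100a9 Ab against Control, where 22 were above 0, as were 53.3% of all genes. Of the 24, 9 had an unadjusted p under 0.05, all higher, as did 16.0% of all genes in either direction. Wwtr1 and Tead1 were at 1.01 and 1.03 there (adjusted p = 0.3 for each from limma).

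Relatives of the members did not all follow them. Over all genes, 8.18% rose and 3.01% fell against Control, and 14.4% fell and 6.72% rose under anti-S100a9 Ab. In the CCN family, beside Ctgf and Cyr61, Wisp2 rose by 4.12 and Wisp1 by 2.01 (adjusted p = 0.0079 and 0.0069 from limma) and both fell under anti-S100a9 Ab, by 3.05 and 1.28, though neither fall held without IgG Ab replicate 3 or any 1 of the anti-S100a9 Ab mice, whereas Nov was at 0.22 and -0.18 without passing. Of 9 other annexins tested, Anxa2 (0.91), Anxa5 (0.76) and Anxa7 (0.67) rose against Control, Anxa2 and Anxa5 fell under anti-S100a9 Ab by 0.93 and 0.57, and Anxa11 rose there by 0.77 (limma, adjusted p under the threshold). The 3 annexin rises went to 0 without Control replicate 1 and to 1 without Control replicate 2 or IgG Ab replicate 1 or 3, and the falls to 0 without IgG Ab replicate 1 or anti-S100a9 Ab replicate 1 or 3.

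Of 10 other Ly6 and related genes tested, Ly6e and Lypd3 rose against Control by 1.60 and 1.45, where 8.18% of all genes rose. Under anti-S100a9 Ab, Ly6e, Ly6k and Lypd3 fell by 1.80, 2.46 and 1.79, where 14.4% of all genes fell. None of the 10 rose without any 1 of the Control mice, IgG Ab replicate 1 or anti-S100a9 Ab replicate 2, nor with quantile normalization, and the 3 falls went to 0 without anti-S100a9 Ab replicate 2 and to 1 without its replicate 1 or 3 or IgG Ab replicate 1. Ly6c1, Ly6c2 and Ly6i, which share sequence with Ly6a, did not pass, at 0.12, -1.89 and -0.95 against Control. In the MARP and LIM families, Trip6 rose by 0.78 (adjusted p = 0.037 from limma) and Wtip fell as above, although Trip6 missed the threshold under median-of-ratios and quantile scaling and in 8 of the 9 fits with a sample left out. Limd1, Lpp, Zyx and Ankrd23 passed in neither comparison.

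The homeostatic crypt base markers were set beside the fetal-like genes. Of all genes, 8.18% rose against Control and 14.4% fell under anti-S100a9 Ab. Of 5 stem cell genes tested, Lgr5 (3.11), Axin2 (3.03) and Smoc2 (2.28) rose in AOM/DSS + IgG Ab against Control, and these and Ascl2 fell under anti-S100a9 Ab by 3.84, 2.36, 2.49 and 1.39. Lrig1 passed in neither, at -0.57 and 0.69. Lgr5 was at 17.8, 2.54 and 10.5 FPKM in the 3 AOM/DSS + IgG Ab mice and at no more than 1.46 FPKM in any other mouse. These crypt base and the fetal-like markers were thus raised in the same group. The mice ranked differently, as Lgr5 was highest in mouse 1 and 6 of the 9 members in mouse 3. Olfm4, also listed, was under 0.1 FPKM in all samples and was not tested. The count of rises was 1 without any 1 of the Control mice, without IgG Ab replicate 3 or where the fit held only the groups compared, and the 4 falls went to 0 without anti-S100a9 Ab replicate 2 and to 2 without its replicate 3. Axin2 is also in the study's lists from these samples.

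Among immune markers, 4 of 8 neutrophil genes rose in AOM/DSS + IgG Ab against Control, where 8.18% of all genes rose. Under anti-S100a9 Ab 3 fell, where 14.4% of all genes fell. The sums were 90.4 to 121, 70.8 to 424 and 91.7 to 169 FPKM in Control, IgG Ab and anti-S100a9 Ab mice. The 3 falls went to 1 without IgG Ab replicate 3 or any 1 of the anti-S100a9 Ab mice. The defining marker Ly6g made up most of the Control sums, at 88.8 to 117 FPKM, where S100a8 and Retnlg had means of 0.607 and 1.10 FPKM. Ly6g did not pass, with log2 fold changes of -0.74 against Control and 0.94 under anti-S100a9 Ab, opposite in sign to the genes that passed. Whether its values came from neutrophils was not tested. S100a8 and Retnlg passed in both comparisons, and none of the 8 was listed at 0 throughout. None of 5 macrophage, 5 endothelial or 5 T cell markers passed against Control, and 1 (Cd4) rose under anti-S100a9 Ab. Their part in the levels of the members was not tested.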

How the data were processed

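Colon RNA of 9 mice was sequenced, 3 per group. The authors deposited 1 table per mouse, with FPKM values in 21544 rows that carry a gene symbol. No source names the unit, and it was taken from the values, decimals with totals of 308377 to 408811 per sample. The submitters' processing notes name TopHat, Cufflinks, HTSeq, DESeq and GRCm38, without versions. The annotation, read length and strandedness are not given in the sources used here.

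Rows repeating a symbol (46) were summed, leaving 21498 symbols. Genes at or above 0.1 FPKM in 3 or more samples (15278) were tested as log2(FPKM + 0.1). A limma 3.58.1 model (R 4.3.3) was fitted to all samples together, with moderated variances that follow an intensity trend (8.87 degrees of freedom) and Benjamini-Hochberg adjustment over all genes, and an adjusted p under 0.05 was the call. The authors' DESeq test needs counts and was not repeated. The fit was tested on simulated data, and no files shared their values.

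Members and lists were chosen with earlier results of these data known. All 9 members are named. In the other lists the 3 largest called rises and falls with a group mean of at least 1 FPKM are named, and any tested gene of the Ly6, annexin, CCN, MARP and LIM families. A gene that the rule names is not reported here. Axl, Emp1, Yap1, Wwtr1, Ascl2, Lrig1, Olfm4, Pdgfra, Pdgfrb, Dcn, Lum, Wt1, Muc16, Cldn15, Ly6g, Trp63, Sprr3 and Acta1 fall outside that rule and were chosen after their values were seen. The 18 alternative settings varied the pseudocount, filter, scaling, groups fitted, replicate block and trend, and left out each sample. Positions are from GENCODE M21 and promoters from RefSeq GRCm38.p6, which held 4 members. Tables and figures were made with Python 3.11.15, pandas 2.3.3, numpy 2.4.6 and matplotlib 3.10.9. The labels call the replicates biological, and each sample was taken as a separate mouse. The p-values set a difference of group means against the moderated spread between samples within groups.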

Additional observations from a re-analysis of the deposited data

How the results depend on the processing

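The count of members that rose in AOM/DSS + IgG Ab against Control, 4, was 2 where the fit held only the 2 groups compared and 2 to 5 when 1 sample was left out. The count that fell in anti-S100a9 Ab against IgG Ab, 4, was 0 to 4 when 1 sample was left out, and 3 to 5 under the other settings. No member passed in anti-S100a9 Ab against Control under any setting. With the paper's thresholds 5 members rose and 4 fell. In the fits of single members, 10 of 71 called values in the first comparison and 12 of 71 in the second missed the threshold, and 3 and 1 uncalled values passed it. No log2 fold change reversed in these comparisons. In anti-S100a9 Ab against Control, 6 of 161 values changed sign: Clu was 0.05 with quantile normalization, 0.31 without Control replicate 3 and 0.38 without anti-S100a9 Ab replicate 2, Ctgf -0.01 and Ankrd1 -0.087 without anti-S100a9 Ab replicate 2, and Cyr61 -0.12 without Control replicate 1. With 1 sample left out these ran from -0.85 to 0.38 for Clu, from -0.01 to 0.49 for Ctgf, from -0.12 to 0.54 for Cyr61 and from -0.087 to 0.55 for Ankrd1. Cyr61 against Control missed the threshold where only these groups were fitted (adjusted p = 0.057 from limma). With 1 sample left out, the rises and falls counted were 8 to 15 and 5 to 14 for the other fetal-like genes, 2 to 4 and 1 to 3 for the Hippo genes, 0 to 4 and 0 to 3 for the annexins, 0 to 2 and 0 to 3 for the Ly6 genes and 3 to 5 and 1 to 4 for the neutrophil markers. The cause of these changes was not tested.

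The labels number the mice 1 to 3 in each group without saying that a number marks a shared litter, cage or day. The correlation of same-numbered samples' deviations ran from -0.19 to 0.25 and was over 0.1 in 5 of 9 pairs. In 9 of 18 comparisons a sample correlated best with its own number. These values do not decide whether the numbers mark pairs. The main fit did not take them as pairs, because the labels do not call them so. With the number as a replicate block, 4 members rose and 5 fell (Clu being the addition, with an adjusted p of 0.031 from limma), 0 passed against Control in anti-S100a9 Ab mice, and over all genes 1209 rose and 494 fell in the first comparison, against 1250 and 460 without it. Depth is unknown, so values of low genes such as Ankrd1 carry an error that could not be computed.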
